A study of Mus musculus with 17 samples.

Results

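The secreted acute-phase genes of alveolar type 2 (AT2) cells described here are 7 genes: Clu, Lcn2, Lrg1, Saa3, Hp, Slpi and Wfdc2, out of 43430 gene models in the count tables. They were chosen by their response to bleomycin, because Clu, Lcn2 and Lrg1 were among the clearest rises in that comparison. Their bleomycin values are therefore given as a description with no test, and only the ISRIB comparison tests them. All 7 symbols matched 1 gene ID each. The data are RNA sequencing counts from 17 libraries of AT2 cells isolated by flow cytometry from C57BL/6J mice aged 2 months, in 2 experiments made with different library kits. In the first, poly(A)-selected libraries from 3 ng of RNA compared 4 vehicle with 4 ISRIB libraries, taken 24 h after dosing of otherwise naive mice. ISRIB is a small molecule inhibitor of the integrated stress response, the program that slows translation and raises stress genes when the initiation factor eIF2 is phosphorylated. In the second, total-RNA libraries from 0.35 ng of RNA compared 4 naive libraries with 5 from mice 14 days after bleomycin, a drug used to injure the lung epithelium and cause fibrosis. The 9 total-RNA libraries all carry the treatment label vehicle, and their titles, like those of the 4 poly(A) vehicle libraries, also say saline. No dose, route or sex is given, and no label says whether each library came from its own animal, so the p-values below measure only the spread between these libraries, which may be technical.

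AT2 cells line the alveoli, make pulmonary surfactant and serve as progenitors of alveolar type 1 cells. Acute-phase proteins are secreted proteins whose output, mainly from the liver, shifts with inflammation. Cytokines of the interleukin-6 family drive many of them through the gp130 receptor, JAK kinases and STAT3, and interleukin-1 and tumour necrosis factor act through NF-kappaB, with C/EBP factors on many of the same promoters. Barrier epithelia such as the lung also make some of these proteins locally. Of the members, clusterin (Clu) is an extracellular chaperone, lipocalin-2 (Lcn2) binds bacterial siderophores and so withholds iron, haptoglobin (Hp) binds free haemoglobin, and Lrg1 is a leucine-rich glycoprotein known to modulate TGF-beta signalling in endothelium. Serum amyloid A3 (Saa3) is an acute-phase apolipoprotein made outside the liver. Slpi and Wfdc2 are small proteins with whey acidic protein (WAP) domains of airway and other mucosal secretions, Slpi an inhibitor of neutrophil elastase. Neither is a classical acute-phase protein of the liver.

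Library totals ran from 3295257 to 15727139 counts, and the total-RNA set was the shallower. The members' share of the total was 0.307 to 0.399% in poly(A), 0.105 to 0.119% in naive and 0.225 to 0.338% in bleomycin libraries. Gene models of ribosomal RNA held 20.8 to 31.9% of a total-RNA library and 0.32 to 0.47% of a poly(A) library, so levels were not compared between the kits. Of the AT2 markers, all 12 had counts in both sets, and Sftpc, the surfactant protein C gene, had 99510 to 111300 CPM (read counts scaled to a common library size by TMM factors) in the poly(A) and 19347 to 42987 in the total-RNA libraries.

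Among the members, Wfdc2 and Hp had the highest mean levels per length in unchallenged cells and Saa3 was close to absent. In the vehicle libraries, the level per kilobase of all annotated exons together was 907 ± 9.19 CPM per kilobase for Wfdc2 (SD, n = 4), 668 ± 29.4 for Hp, 330.3 ± 46.4 for Lrg1, 178 ± 12.97 for Lcn2, 73.1 ± 5.13 for Clu, 25.4 ± 1.70 for Slpi and 0.049 ± 0.047 for Saa3. No neighbours in this order had overlapping ranges. Wfdc2 ranked 26 and Hp 35 among 21461 protein-coding genes. The order depends on the gene length used: with the longest coding transcript, Lcn2 came to 511 ± 37.2 CPM per kilobase and stood above Lrg1, which kept 330.3. In the naive libraries the exon-based levels were 372 ± 31.9 for Wfdc2 (SD, n = 4), 215 ± 23.0 for Hp, 70.9 ± 8.52 for Lcn2, 55.9 ± 8.57 for Lrg1, 29.8 ± 1.26 for Clu and 5.51 ± 1.37 for Slpi. Lrg1 and Lcn2 did not overlap in range there (43.1 to 61.5 against 62.8 to 82.8). With the coding transcript, Clu (56.7 ± 2.39) and Lrg1 (55.9 ± 8.57) did not differ beyond their spread. The ranges of Hp (217 to 281) and Lcn2 (180 to 237) overlapped by that length.

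After bleomycin the order among the members changed, with Lcn2 rising toward the top. Lcn2 reached 398 ± 118 CPM per kilobase of exon (SD, n = 5), beside 447 ± 99.0 for Wfdc2, 229 ± 49.8 for Hp, 209 ± 31.9 for Lrg1, 136 ± 17.9 for Clu and 14.9 ± 5.55 for Slpi. The range of Lcn2 overlapped those of Wfdc2 and Hp, and the ranges of Hp and Lrg1 overlapped too. Per kilobase of coding transcript, Lcn2 (1140 ± 338) exceeded Wfdc2 (600.5 ± 133), and their ranges did not overlap. Lcn2 moved from rank 220 to rank 31 among protein-coding genes by exon length, and from 87 to 15 by coding transcript. These are levels of the contrast that chose the genes.

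**Figure D1:**
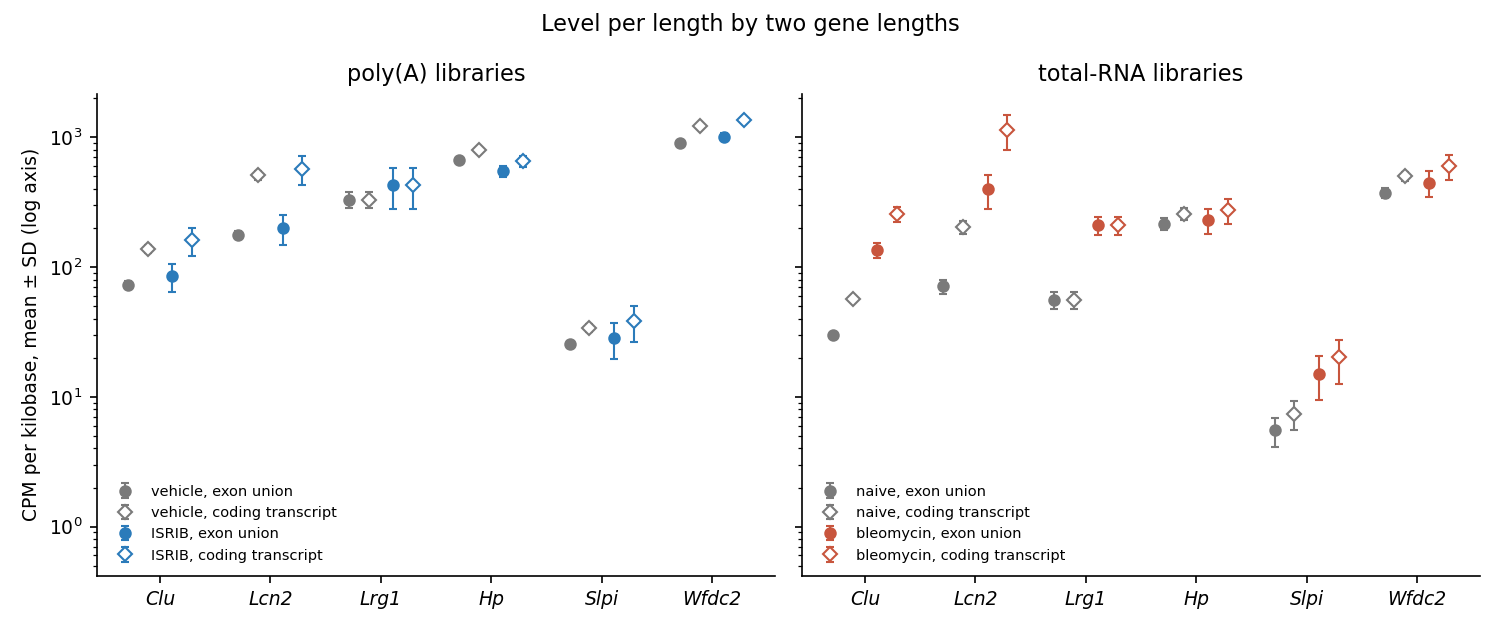
Level of 6 members as CPM per kilobase (log axis) in the 2 kits; points are group means and bars the SD, filled circles use the union of exons and open diamonds the longest coding transcript. Saa3, near or at 0, is not drawn. Wfdc2 and Hp have the highest means in vehicle and naive libraries, and Lcn2 is at the level of Wfdc2 or above it after bleomycin.

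The stretches upstream of the RefSeq starts are shown for the members that stood higher after bleomycin and are in the RefSeq promoter table, and for Saa3, because the motifs of the factors named above were searched there. Of the 7 members, 5 were in the table (build GRCm38.p6), and Clu and Hp were not. Each run is the 250 bases before the start, 5′ to 3′ on the gene's strand, and capitals mark a match to the C/EBP motif TTGCNNAA on either strand. The windows are chr2:32387740-32387989 for Lcn2, chr2:164356508-164356757 for Slpi, chr7:46715677-46715926 for Saa3 and chr17:56121947-56122196 for Lrg1, all on the minus strand.
Lcn2: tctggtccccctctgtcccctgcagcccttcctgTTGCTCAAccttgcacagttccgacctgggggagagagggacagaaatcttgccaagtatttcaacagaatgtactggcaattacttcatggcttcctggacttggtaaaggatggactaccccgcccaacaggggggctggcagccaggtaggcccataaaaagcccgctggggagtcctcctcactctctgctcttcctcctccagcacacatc
Slpi: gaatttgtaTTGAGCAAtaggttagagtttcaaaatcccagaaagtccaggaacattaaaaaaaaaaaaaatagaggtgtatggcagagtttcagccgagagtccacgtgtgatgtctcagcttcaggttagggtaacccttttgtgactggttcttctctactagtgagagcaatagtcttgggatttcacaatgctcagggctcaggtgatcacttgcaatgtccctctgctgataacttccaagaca
Saa3: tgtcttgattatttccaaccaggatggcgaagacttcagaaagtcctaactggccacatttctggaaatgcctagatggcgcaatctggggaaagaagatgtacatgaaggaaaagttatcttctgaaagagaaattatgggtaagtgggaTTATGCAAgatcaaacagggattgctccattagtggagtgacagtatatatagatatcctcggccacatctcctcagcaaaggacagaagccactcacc
Lrg1: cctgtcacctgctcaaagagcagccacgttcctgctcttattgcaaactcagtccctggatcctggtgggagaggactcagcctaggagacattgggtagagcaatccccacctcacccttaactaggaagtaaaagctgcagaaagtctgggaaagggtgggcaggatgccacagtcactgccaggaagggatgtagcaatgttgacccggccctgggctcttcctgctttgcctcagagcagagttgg
Lcn2 holds the match TTGCTCAA at 216 to 209 bases before its start, Slpi TTGAGCAA at 241 to 234 and Saa3 TTATGCAA at 99 to 92. The windows of Lrg1 and Wfdc2 hold none. Over all 27025 promoters of the table, 9.554% hold this motif in the same 250 bases. The STAT motif TTCNNNGAA, found in 7.179% of all promoters, and the NF-kappaB motif, found in 7.008%, had no match in any of the 5 windows. For NF-kappaB a single strict pattern of 10 bases was searched, so looser sites would be missed. The windows of Lcn2 and Slpi lie inside the spans of these genes in the GENCODE annotation (ends at 32388252 and 164389095). So does that of Wfdc2 (chr2:164562465-164562714 on the plus strand, span from 164562413). The windows of Saa3 and Lrg1 overlap the edge of their genes. All 5 therefore depend on the start used. No stretch in these windows matched more than 1 of the 3 motifs. A match describes letters only.

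Clu, Lcn2, Lrg1 and Slpi were higher in every bleomycin library than in any naive one, by 2.73 to 5.60-fold, while Hp and Wfdc2 overlapped between the groups. Clusterin was at 107, 105, 97.9 and 100.2 CPM in naive libraries 1 to 4 and at 420.05, 477, 568, 445 and 422 CPM in bleomycin libraries 1 to 5. The naive libraries lay within 10 CPM of one another, and bleomycin 3 was the highest. Its fitted log2 fold change was 2.18 ± 0.12 (SE, 4 against 5 libraries), or 4.55-fold. Lipocalin-2 was at 178, 217, 165 and 184 CPM in the naive and at 1059, 1536, 965, 687 and 966 CPM in the bleomycin libraries. Bleomycin 2 stood above the other 4, and the lowest, bleomycin 4, was still more than 3 times the highest naive value. The log2 fold change of Lcn2 was 2.49 ± 0.19 (5.60-fold), and it was 2.31 ± 0.14 without bleomycin 2.

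Lrg1 had 60.7, 86.5, 84.1 and 83.5 CPM in the naive and 251, 365, 305, 261 and 293 CPM in the bleomycin libraries. Its log2 fold change was 1.90 ± 0.14 (SE, 3.74-fold), with bleomycin 2 again the highest. Of the pair of WAP proteins, the elastase inhibitor Slpi was low throughout, at 6.71, 6.41, 8.41 and 4.47 CPM in the naive and 9.52, 27.1, 20.1, 14.5 and 16.8 CPM in the bleomycin libraries. The gap between the groups was narrow, between naive 3 and bleomycin 1. The log2 fold change of Slpi was 1.45 ± 0.30 (2.73-fold), and 1.25 ± 0.29 without bleomycin 2. Wfdc2 had 471, 409, 432 and 386 CPM in the naive and 317, 524, 604, 576 and 527 CPM in the bleomycin libraries. Bleomycin 1 lay below all naive libraries and the other 4 above them, so that the log2 fold change was 0.27 ± 0.15 with bleomycin 1 and 0.40 ± 0.11 without it.

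Haptoglobin, at 378, 358, 354 and 292 CPM in the naive and 257, 315, 437, 440.3 and 390.05 CPM in the bleomycin libraries, had a log2 fold change of 0.09 ± 0.15 (SE). Bleomycin 1 and 2 were at the low end and bleomycin 3 to 5 at the high end. Saa3 fell under the filter on low counts. It had 0 counts in each of the 4 naive libraries and 0, 22, 4, 0 and 5 counts in bleomycin 1 to 5. Set against a floor of 3 counts over the naive group, the pooled bleomycin level of Saa3 was 6.16 times the floor level. Without bleomycin 2, which held most of the Saa3 counts, it was 2.28 times. These ratios include no counting error and no spread between libraries, and bleomycin 1 and 4 had 0 counts like every naive library. The related Saa1 and Saa2 had at most 1 count in the whole total-RNA set. A gene with near-identical copies can lose counts to them, which the counts do not show.

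**Figure D2:**
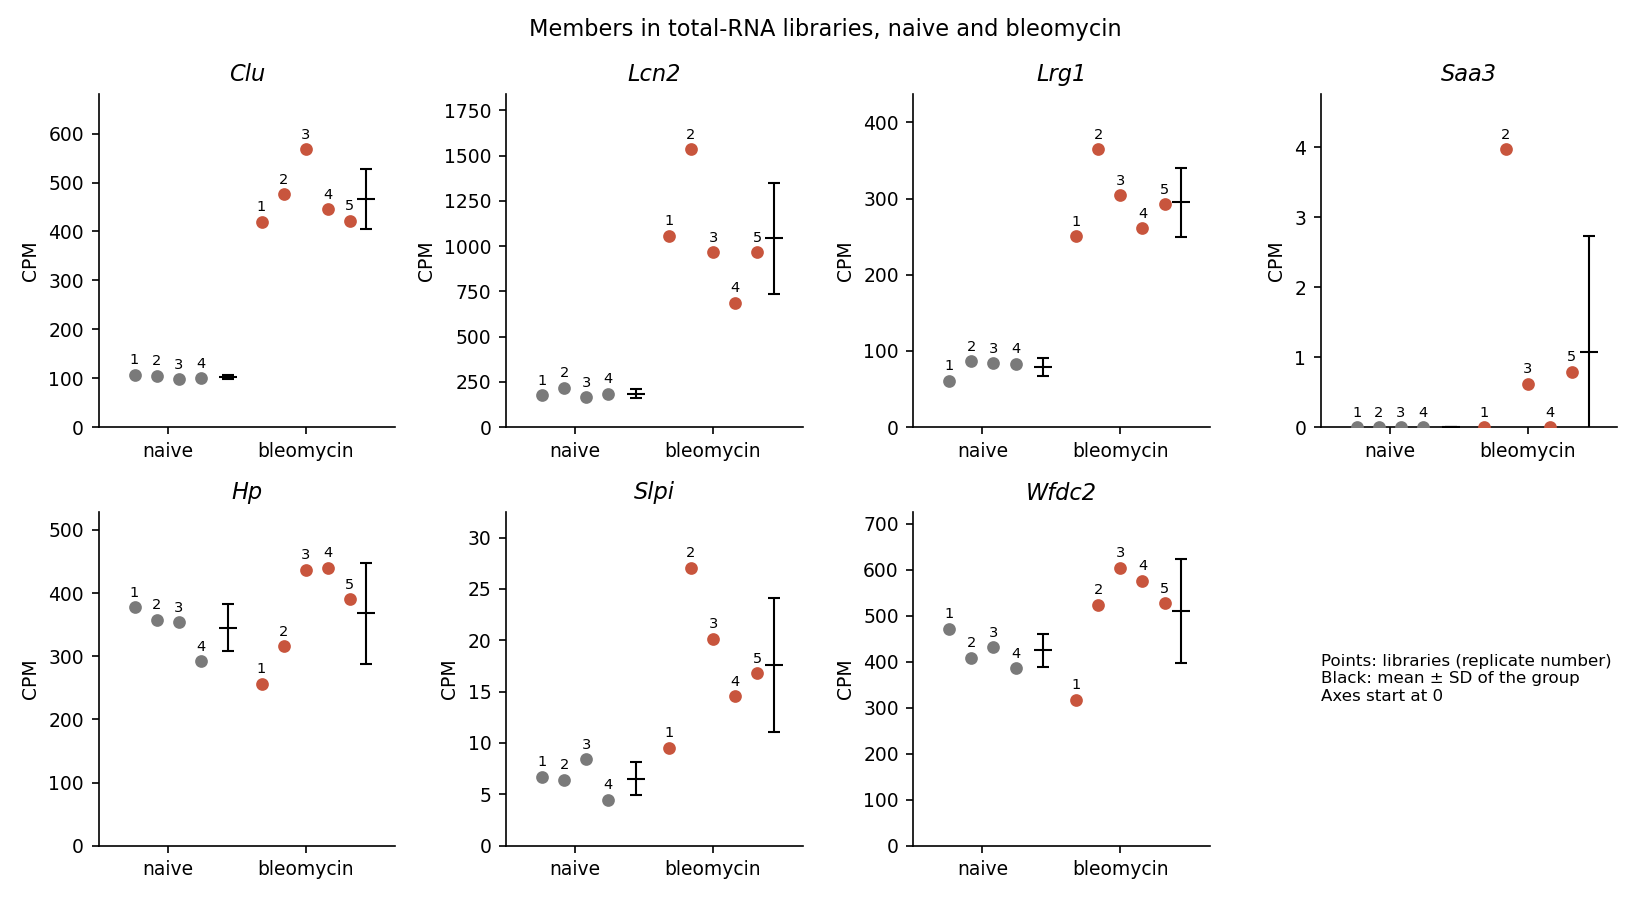
CPM of the 7 members in each total-RNA library (points, with replicate numbers), with the mean and SD of each group in black; linear axes start at 0. Clu, Lcn2, Lrg1 and Slpi do not overlap between naive and bleomycin, Wfdc2 is low in bleomycin 1, and most Saa3 counts are in bleomycin 2.

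In all, 6 of the 7 members passed the filter on low counts, and 4 of these 6 were higher with no overlap between the groups, beside 10.4% of the 11223 genes in this comparison (9.35% lower with no overlap). Nothing is read from that count, since the contrast chose the members. For the related genes below, which are tested, the background is that edgeR's quasi-likelihood test called 11.2% of the 11223 genes higher and 9.31% lower at an adjusted p under 0.05.

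Other cell types and states differed between the same libraries. Fibroblast markers (12 genes) summed to 5.07 to 13.1 CPM in the naive and 18.6 to 117 CPM in the bleomycin libraries, with the highest sum in bleomycin 2, and Col1a1, a fibrillar collagen gene, reached 52.3 CPM there. Lum was the one fibroblast marker at 0 throughout. Airway markers (12 genes) overlapped in sum (489 to 968 against 577 to 1041 CPM). Without the club cell gene Scgb1a1 they summed to 128 to 191 against 167 to 361 CPM, again highest in bleomycin 2. That library had the most Lcn2, Lrg1, Slpi and Saa3. Bleomycin 1 had 56.1 CPM of the fibroblast and 236 CPM of these airway markers. It was the lowest bleomycin library for Clu, Lrg1 and Slpi and had 0 counts of Saa3. Of 9 tested airway markers 3 rose, Foxj1 (log2 2.27 ± 0.52, adjusted p = 0.00440), Ccdc153 and Tekt1, all genes of ciliated cells. Endothelial markers (10 genes) summed to 24.7 to 35.9 against 32.3 to 93.4 CPM, highest in bleomycin 5. Their part in the members' values was not tested.

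Neutrophils are a known source of Lcn2, Slpi, Hp and Lrg1. Of 15 neutrophil markers, 8 were at 0 in all total-RNA libraries, including S100a8, Ly6g, Elane and Camp. The list's sum of 177 to 244 CPM in the naive and 203 to 277 CPM in the bleomycin libraries came almost wholly from Hdc, and without Hdc it was 1.34 to 1.92 and 0.53 to 8.30 CPM. The highest of these was bleomycin 2, with 36 counts of Ltf and 10 of Retnlg and none of S100a8 or S100a9. The part of neutrophil RNA in the members' values was not tested. The macrophage and monocyte markers (14 genes, Marco and C1qa at 0) summed to 7.05 to 12.7 and 6.50 to 10.8 CPM, and Ptprc, the pan-leukocyte CD45 gene, had 0 to 10 counts a library. Lymphocyte markers (11 genes, Cd3d, Ms4a1 and Trac at 0) summed to 2.68 to 8.76 and 1.32 to 9.59 CPM. The AT2 markers summed to 85636 to 93184 CPM in the naive and 53696 to 93786 CPM in the bleomycin libraries, lowest in bleomycin 1, where Hp and Wfdc2 were also lowest. In bulk libraries like these, fewer cells of a type and less RNA per cell cannot be told apart.

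Markers of transitional epithelium, the keratin 8-high state that AT2 cells pass through on the way to type 1 cells, also differed between the groups. Within the bleomycin group, the order of the libraries by their sum was not that of Clu, Lcn2, Lrg1 or Slpi. Of 12 such markers, 11 were called higher and 1, Nupr1, lower after bleomycin, and their sum was 696 to 735 CPM in the naive and 1150.4 to 1560.2 CPM in the bleomycin libraries, highest in bleomycin 2. Type 1 cell markers (10 genes) summed to 1396 to 1621 and 2126 to 2645 CPM, with 7 of 9 tested called higher. The link to the members was not tested.

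By pattern over the 9 total-RNA libraries, measured as the root mean square difference of log2 CPM centred on the naive mean among 9276 candidate genes, the genes nearest to Clu were Filip1 (0.258), Steap4 (0.264) and Slc26a4 (0.291). Steap4 had 7, 10, 7 and 6 counts in naive libraries 1 to 4 and passed the filter on low counts only through its bleomycin libraries. Nearest to Lcn2 were Cdkn1a (0.252), the gene of the cell cycle inhibitor p21, Timp2 (0.295), a metalloproteinase inhibitor, and Slc26a4 (0.307). Lrg1 lay closest to Ccng1 (0.142), the cyclin G1 gene, then Prc1 (0.245) and Filip1 (0.268). For Slpi they were Tmem37 (0.258), Ccnd1 (0.284) and B2m (0.297). Hp was nearest to Rpl10a, Sdhaf2 and Szrd1 (0.097 to 0.112), and Wfdc2 to Tagln2, Rpl7a and Mcfd2 (0.100 to 0.113), all genes with small differences between the groups. The measure mostly follows the size of the group difference, and these genes share all libraries with the members.

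Few other genes of the acute-phase response had counts enough to be tested. Of 33 on the list, which holds secreted proteins and the intracellular metallothioneins Mt1 and Mt2, 8 passed the filter in each comparison, and Saa1, Saa2, Crp and Apcs were among those below it. In the bleomycin comparison edgeR and DESeq2 called 6 of the 8 higher and limma-voom 5, and 7 were higher at an unadjusted p under 0.05. None was lower by any of these. The median log2 fold change was 1.65 beside 0.00 over all genes. The fibronectin gene Fn1 rose from 2.33 ± 0.83 (SD, n = 4) to 59.9 ± 65.0 CPM (SD, n = 5), or by 4.72 ± 0.72 on the log2 scale (SE; adjusted p = 1.4e-04 by edgeR), with single bleomycin libraries from 17.9 to 171 CPM. The ferroxidase ceruloplasmin gene Cp rose from 8.00 ± 2.23 to 32.4 ± 20.98 CPM (2.03 ± 0.39, adjusted p = 0.00124), and the metallothionein gene Mt2 from 2.78 ± 0.87 to 9.91 ± 4.78 CPM (1.87 ± 0.40, adjusted p = 0.00306). The remaining rises, named after their values were seen, were Orm1, with 5 counts over the naive and 142 over the bleomycin libraries, Mt1 (1.44 ± 0.26) and the lipopolysaccharide-binding protein gene Lbp (0.86 ± 0.13). Single naive libraries held 1 to 2 counts of Orm1, 6 to 11 of Fn1 and 7 to 11 of Mt2. These genes passed the filter on low counts only through their bleomycin libraries. Such genes can enter the fit only where they are high after bleomycin, so nothing is read from the 6 of 8 or from the median. Fn1 is a product of fibroblasts as well, and the fibroblast marker sums are given above. The part of fibroblast RNA in its rise was not tested.

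Along the signalling route, ligands, receptors and factors moved in both directions after bleomycin. Of 12 cytokine ligands only Il33 and Clcf1 passed the filter, and Il33 rose from 331 ± 60.0 to 495 ± 63.1 CPM (log2 0.58 ± 0.14, adjusted p = 0.00552). Il6, Il1b, Tnf, Osm and Lif were under the filter. Of 14 tested receptors and adaptors 2 rose, the oncostatin M receptor gene Osmr (0.50 ± 0.12, adjusted p = 0.00606) and Myd88 (0.50 ± 0.16, adjusted p = 0.0281). The 3 that fell were the leukaemia inhibitory factor receptor gene Lifr, from 167 ± 16.2 to 77.2 ± 12.1 CPM (-1.11 ± 0.13, adjusted p = 8.73e-06), Tlr4 (-0.73 ± 0.22, adjusted p = 0.0230) and Il11ra1 (-0.69 ± 0.23, adjusted p = 0.0405). The shared receptor gene Il6st, which encodes gp130, had a log2 fold change of -0.13 ± 0.12 and did not pass.

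Of 22 tested kinases, factors and feedback genes, 5 rose and 1 fell after bleomycin. Socs3, a STAT3 target that feeds back on the pathway, rose from 53.1 ± 12.6 to 81.7 ± 7.57 CPM (0.63 ± 0.15, adjusted p = 0.00645), with Cish (0.89 ± 0.22), Bcl3 (0.82 ± 0.22), Tnfaip3 (0.81 ± 0.20) and, named after its values were seen, Nfkb2 (0.51 ± 0.16). Nfkbiz, which encodes an NF-kappaB cofactor known to be needed for Lcn2 induction in other cells, fell from 70.7 ± 6.82 to 37.1 ± 10.98 CPM (-0.93 ± 0.17, adjusted p = 7.33e-04). Stat3 (0.15 ± 0.11, adjusted p = 0.364), Cebpb (0.45 ± 0.16, adjusted p = 0.0569) and Cebpd (-0.05 ± 0.19, adjusted p = 0.887) did not pass.

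The remaining lists stood nearest to the members by binding or family. Of 10 tested receptors and partners of the members, 3 rose and 3 fell. Lrp2, which encodes megalin, an endocytic receptor that takes up lipocalin-2 and clusterin, rose from 1264 ± 125 to 1907 ± 158 CPM (0.59 ± 0.12, adjusted p = 0.00174), with the TGF-beta receptor gene Tgfbr2 (0.63 ± 0.12) and the progranulin gene Grn (0.55 ± 0.14). Vldlr (-0.79 ± 0.20), Cd36 (-0.77 ± 0.18) and Scarb1 (-0.55 ± 0.19), which encode lipoprotein and lipid receptors, fell. Among 13 tested secreted antimicrobial and mucosal genes 5 rose and 1 fell, led by Lgals3bp (2.32 ± 0.30), Pigr (0.83 ± 0.28) and Lgals3 (0.71 ± 0.20), and the one that fell was the lysozyme gene Lyz1 (-0.75 ± 0.23), which can share reads with its close copy Lyz2 and was not called by DESeq2. Of 9 tested chaperone, lipoprotein and matrix genes 3 rose, the endoplasmic reticulum chaperone genes Calr (1.12 ± 0.16) and Hspa5 (0.72 ± 0.11) and the matrix protein gene Sparc (1.10 ± 0.11), and Pon1 (-3.68 ± 0.28) and Pon3 (-0.56 ± 0.14), which encode paraoxonases, fell. Apart from the members, no gene with a WAP domain passed the filter. The protease inhibitor genes Spint1 and Spint2, of the Kunitz type and kept on the same list, were tested and neither was called by edgeR, DESeq2 or limma-voom (1 at an unadjusted p under 0.05). Of 2 lipocalin-family genes only Orm1 rose, which passed the filter only through its bleomycin libraries. Over all 9 lists 25 of 81 tested genes rose, Orm1, Fn1 and Mt2 among them, and 10 fell, beside 11.2% and 9.31% of all genes. The lists were chosen with earlier results of these data known, so nothing is read from these totals. Without naive 1, 2 or 4 the number that fell was 6, 5 and 6.

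**Figure D3:**
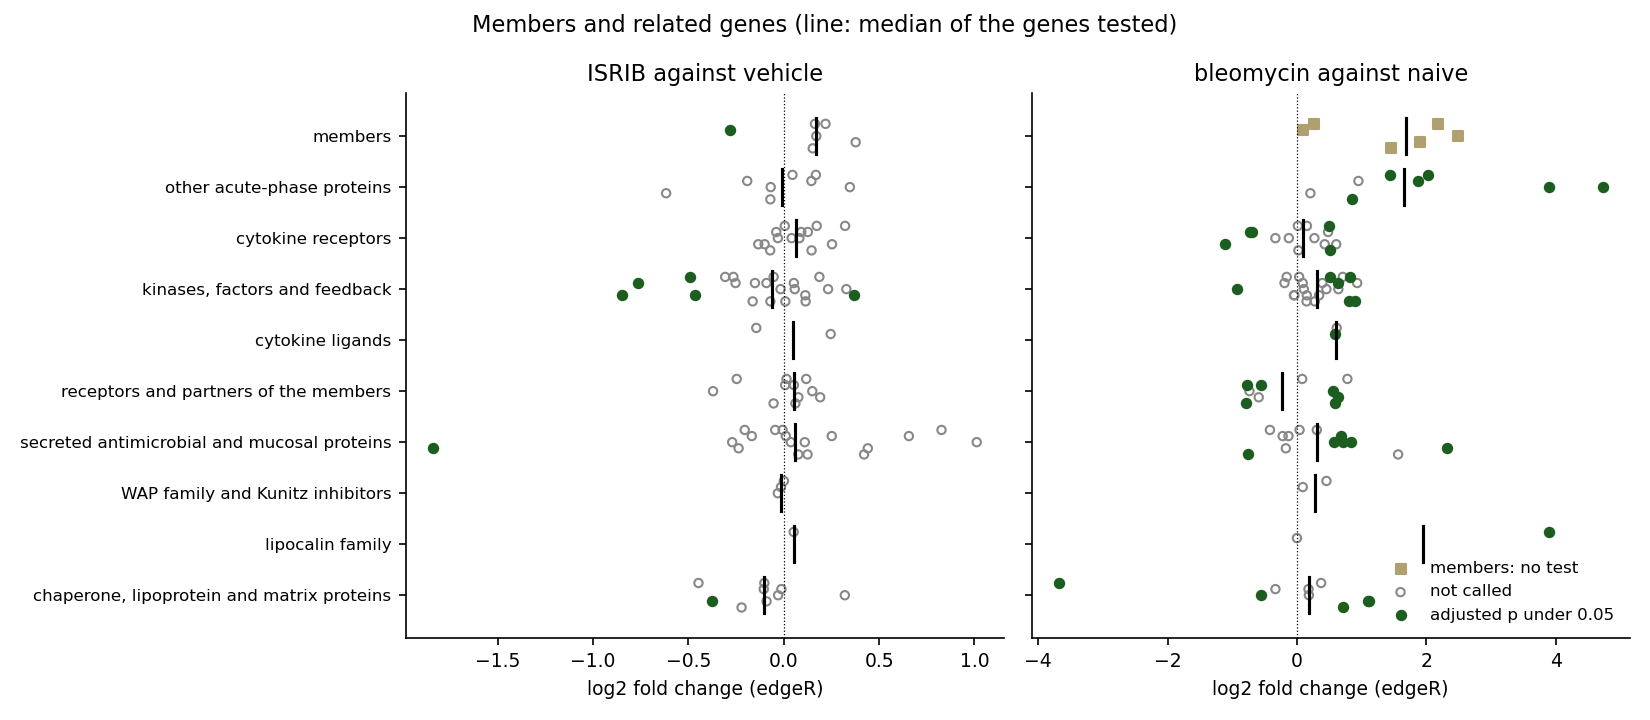
Log2 fold change of the members and of each tested gene in 9 related lists, for ISRIB against vehicle (left) and bleomycin against naive (right); filled points have an adjusted p under 0.05 and the black line is the median of the tested genes. The members' points on the right (squares) are the contrast that chose them and carry no test. Other acute-phase genes lie to the right of 0 after bleomycin and around 0 after ISRIB. Of them, Orm1, Fn1 and Mt2 passed the filter of the bleomycin comparison only through its bleomycin libraries.

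ISRIB did not move the members together: Hp fell, Wfdc2 was slightly higher in every ISRIB library without passing the test, and Clu, Lcn2, Lrg1 and Slpi did not pass. Of the 6 members tested edgeR called none higher and 1 lower, beside 1.10% of 12054 genes called higher and 1.10% called lower. At an unadjusted p under 0.05, 2 members were higher, DESeq2 called 1 higher and limma-voom none. Hp was at 1047, 1044, 1059 and 1143.5 CPM in vehicle libraries 1 to 4 and at 959.85, 792, 938 and 837 CPM in ISRIB libraries 1 to 4, so that the groups did not overlap, as for 4.39% of all genes in this direction. Its log2 fold change was -0.28 ± 0.063 (SE), to 0.82 of the vehicle level, with an adjusted p of 0.0255 by edgeR. The call was lost when 1 library was left out in 5 of 8 cases: without vehicle 1, vehicle 2, vehicle 4, ISRIB 2 or ISRIB 4 the adjusted p was 0.0630, 0.0599, 0.0702, 0.0602 or 0.0772, with log2 fold changes of -0.32 to -0.23 over all 8 such fits. The direction was the same in each.

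Wfdc2 was at 1021, 1042, 1042 and 1030.2 CPM in the vehicle and 1143, 1241.5, 1086 and 1162 CPM in the ISRIB libraries. The vehicle libraries lay within an SD of 10.5 CPM, and all 4 ISRIB libraries were above them, as for 4.26% of all genes. The log2 fold change was 0.16 ± 0.051 (SE, adjusted p = 0.112, edgeR), which did not pass, while DESeq2 gave an adjusted p of 0.0280 and the other settings gave 0.0846 to 0.258. Saa3 had 1, 0, 2 and 3 counts in the vehicle and 1, 5, 0 and 3 counts in the ISRIB libraries, a ratio of 1.44 with an exact 95% interval of 0.456 to 4.90 that covers counting error only. No difference in Saa3 was detectable at this depth.

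For Clu, the vehicle libraries had 258, 229.7, 246 and 271 CPM and the ISRIB libraries 243, 343, 222 and 361 CPM (log2 0.22 ± 0.12, adjusted p = 0.385, edgeR). Lcn2 had 489, 423, 458 and 498 CPM against 429, 582, 403 and 691 CPM (0.17 ± 0.12, adjusted p = 0.539). In both genes ISRIB 2 and 4 were above all vehicle libraries, and ISRIB 1 and 3 were within or below them. Lrg1 had 434, 490.4, 393 and 543 CPM against 433, 683, 431 and 869 CPM (0.38 ± 0.17, adjusted p = 0.279). Slpi had 31.0, 27.0, 31.2 and 30.6 CPM against 25.2, 38.7, 24.6 and 45.3 CPM (0.15 ± 0.15, adjusted p = 0.691), and without ISRIB 4 its log2 fold change was -0.02. The interval of 2 SE on either side ran from -0.02 to 0.46 for Clu, -0.08 to 0.42 for Lcn2, 0.04 to 0.72 for Lrg1 and -0.15 to 0.45 for Slpi, with the widest allowance for a rise in Lrg1.

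**Figure D4:**
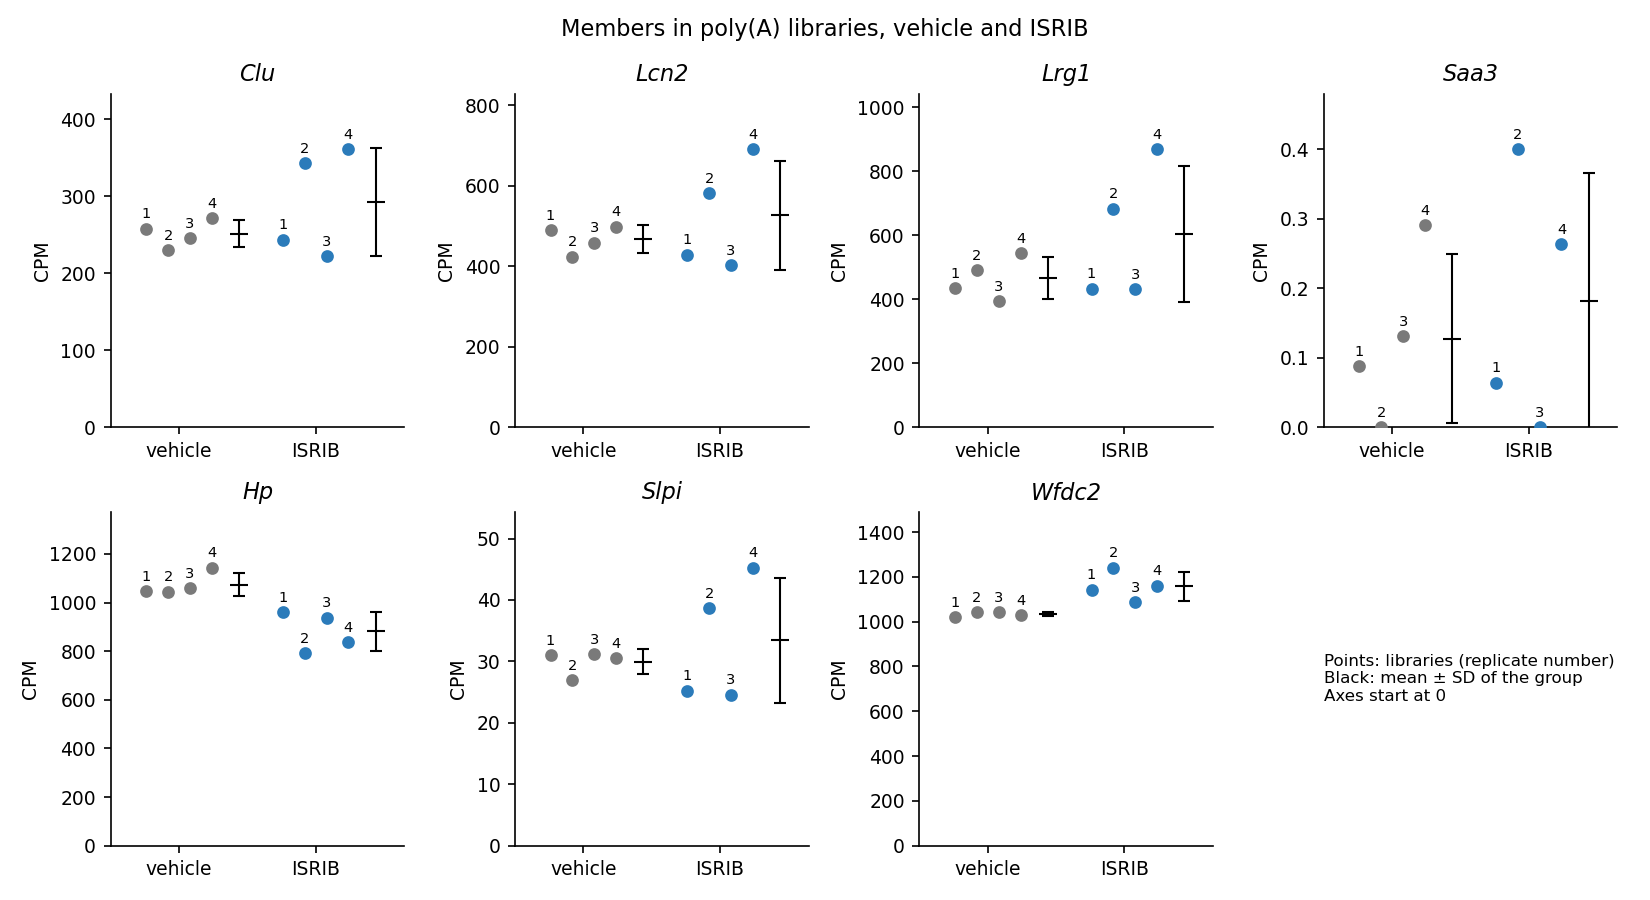
CPM of the 7 members in each poly(A) library (points, with replicate numbers), with the mean and SD of each group in black; linear axes start at 0. Hp is lower and Wfdc2 higher in all 4 ISRIB libraries, and Clu, Lcn2, Lrg1 and Slpi are high in ISRIB 2 and 4 only.

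The ISRIB libraries differed among themselves, and in the same way for most members. This pattern was noticed in the values and gets no test. ISRIB 2 and ISRIB 4 were the 2 highest of the 8 libraries for 5 of the 6 tested members, Clu, Lcn2, Lrg1, Slpi and Wfdc2, beside 7.22% of all 12054 genes, the most frequent of the 28 possible pairs. Relative to the vehicle mean, ISRIB 4 stood at 1.44 for Clu, 1.48 for Lcn2, 1.87 for Lrg1, 1.51 for Slpi and 1.12 for Wfdc2. ISRIB 2 stood at 1.37, 1.24, 1.47, 1.29 and 1.20 for the same genes. The range over ISRIB 1 and ISRIB 3 was 0.82 to 0.97 for Clu, Lcn2, Lrg1 and Slpi. Hp went the other way and was lowest in these same libraries, at 0.74 in ISRIB 2 and 0.78 in ISRIB 4, with 0.87 to 0.89 in the other two.

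On the log2 scale, the SD over ISRIB libraries was 3.45 times that over vehicle libraries for Clu, 3.44 for Lcn2 and 2.47 for Lrg1. It was 4.42 times for Slpi, 5.44 for Wfdc2 and 2.12 for Hp, against a median of 1.02 over all genes. Of all genes 3.86%, 3.87%, 9.17%, 2.02%, 1.19% and 13.1% had a ratio at least as large, in that order. The ratio of Wfdc2 rests on a small vehicle SD (0.015), and its SD over ISRIB libraries (0.080) was the smallest of the tested members. Of 88 tested related genes, 11 had their highest values in ISRIB 2 and 4 (12.5%). They were Apoe, Lbp, Sftpd, Cxcl15, Tnfrsf1a, Mt2, Tgfbr2, Lgals3bp, Chil1, Lyz1 and Lyz2, named after their values were seen.

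**Figure D5:**
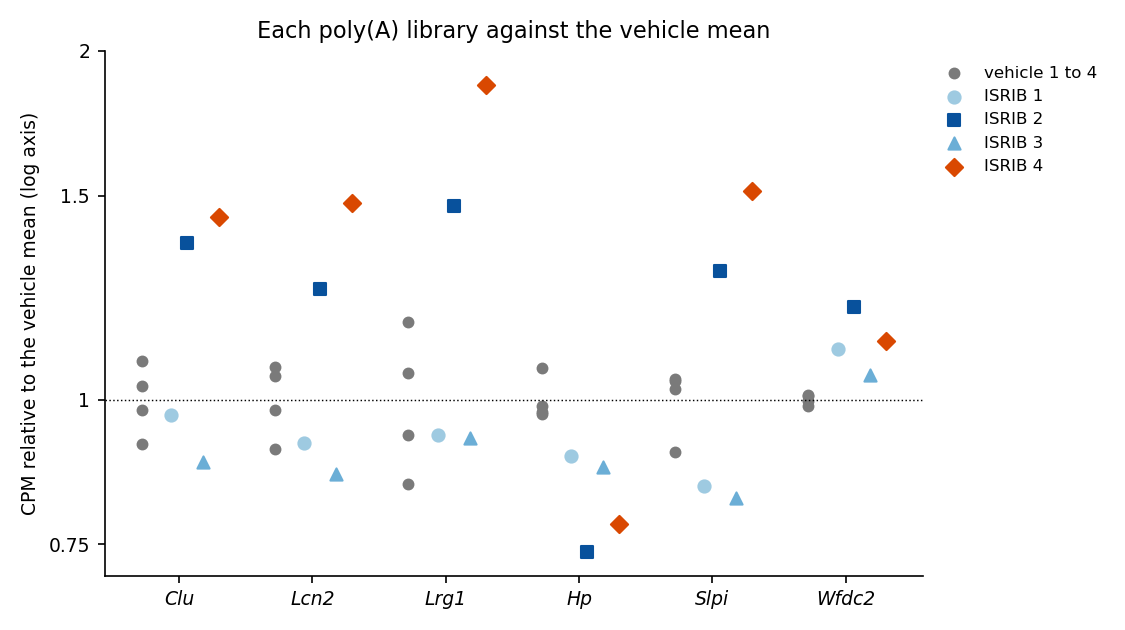
CPM of 6 members in each poly(A) library relative to the mean of the 4 vehicle libraries (log axis), with grey points for vehicle and 1 symbol for each ISRIB library. ISRIB 2 (squares) and ISRIB 4 (diamonds) are at 1.12 to 1.87 for Clu, Lcn2, Lrg1, Slpi and Wfdc2 and at 0.74 to 0.78 for Hp.

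Markers of other cells in the same libraries were as follows. Scgb1a1 was at 2742 CPM in ISRIB 2 and 1956 in ISRIB 4, against 3252 to 3643 in the other 6 libraries. All 12 airway markers summed to 3368 and 2449 CPM in those 2 libraries and to 3943 to 4379 in the others. Sftpc was also lower, at 99811 and 99510 CPM against 107240 to 111300, and the 12 AT2 markers summed to 188160 and 191200 CPM against 195040 to 199780. Without Sftpc the AT2 sums were 88345 and 91695 CPM in ISRIB 2 and 4, against 87798 to 90713 in the other libraries, and Sftpd and Cxcl15 had ISRIB 2 and 4 as their 2 highest. The type 1 markers (2519 to 2855 CPM), fibroblast markers (14.9 to 29.3 CPM), endothelial markers (45.3 to 65.8 CPM) and transitional markers (710 to 891 CPM, 3 of 12 called lower after ISRIB) were given over all 8 libraries, and none had ISRIB 2 and 4 as its 2 highest.

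Of the 15 neutrophil markers 7 were at 0, S100a8 had 2 counts in vehicle 3 and none elsewhere, and without Hdc the list summed to 1.27 to 4.66 CPM. Macrophage and monocyte markers (Fcgr1, C1qa and C1qc at 0) summed to 6.89 to 9.83 CPM, lymphocyte markers (9 of 11 at 0) to 15.8 to 20.9 CPM, nearly all from Cd79b, and Ptprc had 0 to 3 counts. Total counts of ISRIB 2 (12197232) and ISRIB 4 (11318112) lay within the range of the other libraries. The part of these markers and of depth in the spread of the members was not tested.

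Among the regulators of the acute-phase route, some moved in all ISRIB libraries. Of 22 tested kinases, factors and feedback genes 1 rose and 4 fell. Socs3 fell from 98.7, 133, 90.6 and 86.7 CPM in the vehicle to 61.5, 58.2, 62.4 and 58.5 CPM in the ISRIB libraries (log2 -0.76 ± 0.10, adjusted p = 0.00121, edgeR). The 4 ISRIB libraries were close together and below all vehicle libraries. Pim1, a kinase gene induced by the same STAT factors, fell from 47.9 ± 8.61 (SD, n = 4) to 26.7 ± 2.79 CPM (SD, n = 4; -0.85 ± 0.11, adjusted p = 9.93e-04). Junb, an AP-1 factor gene named after its values were seen, also fell (-0.47 ± 0.082, adjusted p = 0.00817). Cebpd rose from 86.5 ± 10.5 to 111.7 ± 12.7 CPM (0.37 ± 0.086, adjusted p = 0.0319), with overlapping groups, and this call was lost without vehicle 1 or vehicle 3.

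Cebpb (0.33 ± 0.098, adjusted p = 0.0958), Nfkbiz (0.23 ± 0.094, adjusted p = 0.227) and Stat3 (0.11 ± 0.058, adjusted p = 0.353) did not pass after ISRIB. Pim1, Junb and Cebpd have exons that overlap a gene on the opposite strand, as do Cp, Fn1 and Mt2. Other genes named in the text do too, among them Cebpb, Stat3, Myd88, Nfkb2, Cish, Bcl3, Grn and Cdkn1a. Where counting ignores strand such reads cannot be told apart. Of the other lists, no gene was called among the 8 acute-phase genes, 14 receptors, 2 ligands, 11 receptors and partners of the members, 1 lipocalin-family gene, and Wfdc1, Spint1 and Spint2 tested besides the members. At an unadjusted p under 0.05 these lists had 2, 3, 1, 2, 0 and 0 genes in that order. DESeq2 called 1 of the receptors higher and 2 of the partners lower, and limma-voom none. Calr fell (-0.38 ± 0.059, adjusted p = 0.00359), as did Chil3, which had 59 counts over the vehicle and 17 over the ISRIB libraries and was not called by DESeq2. The 2 comparisons share no library. Of the related genes named as falling after ISRIB, Socs3 and Calr rose after bleomycin, while Pim1 and Junb were not called there. Chil3 had 0 counts over the naive and 3 over the bleomycin libraries. Nothing is read from the opposite calls. Over all 9 lists 1 of 88 tested genes rose and 6 fell, beside 1.10% of all genes in each direction. Nothing is read from these totals either, for the same reason as after bleomycin. The 265 calls over all genes dropped to 86 without vehicle 1, 102 without vehicle 2 and 159 without ISRIB 4.

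Neighbouring genes on the chromosome were compared for Clu, Lcn2 and Lrg1, which led to the choice of the set. In the GENCODE annotation (GRCm38) Lcn2 lies at chr2:32384633-32388252 on the minus strand, Clu at chr14:65968483-65981547 on the plus strand and Lrg1 at chr17:56119678-56122001 on the minus strand. Both annotated neighbours of Clu, Scara3 and Gulo, were under the filter in both comparisons. Ptges2, on one side of Lcn2, had a log2 fold change of 0.03 (adjusted p = 0.946) after bleomycin, and 1110008P14Rik, on the other side, rose by 0.81 (adjusted p = 0.0241). Sema6b, next to Lrg1, had 1.17 (adjusted p = 0.130). Of the members, only Slpi had exons that overlapped another gene, by 1 base with the microRNA gene Mir7678.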

How the data were processed

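RNA was measured in sorted mouse AT2 cells, in 8 poly(A) and 9 total-RNA libraries. Whole-number counts of reads for each gene were deposited by the authors, in 1 table per kit. Per the submitters' processing notes, bcl2fastq 2.19.1, FastQC, Trimmomatic 0.36, STAR 2.6.0 and HTSeq 0.11.2 were used with the mm10 build. For the annotation and the strand setting nothing is given in the sources used. Gene symbols came from GENCODE M21 by gene ID (42546 of 43430 IDs). Each kit was fitted alone with edgeR 4.0.16 in R 4.3.3: filterByExpr (minimum count 10, minimum total 15), TMM scaling and the two-sided quasi-likelihood F test on a design of group alone. Benjamini-Hochberg adjustment ran over every gene in the fit, with calls made at an adjusted p below 0.05. The SE is the unshrunk log2 fold change divided by the root of F. DESeq2 1.42.0, limma-voom (limma 3.58.1), other scalings, no filter, a replicate block and leaving out each library were alternatives. The procedure was tested on simulated data.

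The members and all gene lists were chosen with earlier results of these data known. The text names all members. From each list and comparison it names up to 3 called rises and 3 called falls, the largest, with a mean of at least 5 CPM. It also names the 3 genes nearest in pattern to each member and 5 regulators (Stat3, Socs3, Cebpb, Cebpd and Nfkbiz). Other genes named were picked after their values were seen. For the ISRIB comparison, 1 gene that this rule selects is not reported here. Depth (3295257 to 15727139 counts) limits what low genes such as Saa3 can show.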

Additional observations from a re-analysis of the deposited data

Results flagged for a closer look

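Of 27 groups of 4 or 5 libraries checked, 5 held a library far from the others of its group, where chance flags about 1 in 20. Lrg1 was at 60.7 CPM in naive 1, below the next naive library at 83.5. Saa3 was at 3.97 CPM in bleomycin 2, above the next at 0.79, and both values rest on few counts. Hp was at 1143.5 CPM in vehicle 4, above the next vehicle library at 1059. Slpi was at 26.95 CPM in vehicle 2, below the next at 30.6. Wfdc2 was at 317 CPM in bleomycin 1, below the next bleomycin library at 524, and the sum of AT2 markers was also lowest there.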

How the results depend on the processing

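For the members after bleomycin, all 16 alternatives moved each log2 fold change by less than its SD over bleomycin libraries. Leaving out a single library can hardly exceed so wide a limit, so nothing is read from it. Leave-one-out fits gave 2.11 to 2.23 for Clu, 2.31 to 2.61 for Lcn2 and 1.80 to 1.96 for Lrg1. They gave 1.25 to 1.61 for Slpi, 0.02 to 0.20 for Hp and 0.20 to 0.40 for Wfdc2. After ISRIB, DESeq2 called 408 genes and no filter on low counts gave 648, against 265, and leave-one-out gave 86 to 269. Related genes called higher were 2 with DESeq2, 11 with no filter and 0 to 2 with leave-one-out, and those called lower 13 with no filter and 5 to 8 with leave-one-out. Wfdc2 passed with DESeq2 (0.16). With no filter Clu (0.22 ± 0.059, SE, adjusted p = 0.0134) and Lrg1 (0.37 ± 0.058, adjusted p = 3.17e-08) passed by edgeR. Their fold changes hardly moved, and what shrank was the SE, which with the filter was 0.118 for Clu and 0.169 for Lrg1. The vehicle and ISRIB libraries overlapped for both genes, so these p-values are not read as an effect of ISRIB. The cause was not tested. Hp had -0.32 to -0.23 in leave-one-out fits. Slpi changed sign without ISRIB 4 (-0.023), with a leave-one-out range of -0.023 to 0.28. Related genes that fell after bleomycin numbered 5 to 10. Of 18 nearest genes, 15 to 16 were shared with other settings. Per kilobase, Lcn2 depends most on the gene length.

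Over all genes, deviations of same-numbered libraries correlated at -0.11 to 0.08 after ISRIB and -0.04 to 0.05 after bleomycin. Such values cannot exclude a pairing that shows in single genes, and the labels do not state one. With the replicate block, 277 genes were called after ISRIB and 2187 after bleomycin, Hp kept its call (adjusted p = 0.0315, edgeR) and no other member gained one. The block changed Lrg1 after ISRIB from 0.38 ± 0.17 (SE, adjusted p = 0.279, edgeR) to 0.32 ± 0.090 (adjusted p = 0.0849).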
